A study of Mus musculus with 2 samples.

Results

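The genes described are 10 members of the circadian clock: the activators Arntl and Clock, the nuclear receptors Nr1d1 and Nr1d2, the repressors Per2, Per3 and Ciart, and the PAR bZIP output factors Dbp, Tef and Hlf. They were found by gene symbol among the annotated genes of both libraries, where 14451 annotated genes had reads in either. All 10 were found, with 465 reads in replicate 1 and 429 in replicate 2. The data were long-read RNA-seq of gastrocnemius, a calf muscle, from female B6CASTF1/J mice, the hybrids of a laboratory strain and a wild-derived strain, aged 18 to 20 months. There were 2 libraries, labelled biological replicates 1 and 2 of 1 group, each started from 2 µg of RNA, and no treatment or other group. The labels give each library its own tissue record but 1 donor record for both, so a difference between them may be technical. The p-values below compare these 2 libraries and take in counting error only, unless a sentence says otherwise. The sources used here do not give the time of day at which the tissue was taken.

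The clock is a loop of transcription and repression that runs in nearly every cell. ARNTL (also called BMAL1) and CLOCK bind DNA together at E-boxes and switch on their own repressors, the period and cryptochrome proteins and CIART, while the NR1D receptors (also called REV-ERBs) repress Arntl through ROR elements. DBP, TEF and HLF pass the rhythm on by binding D-boxes of other genes, and their RNA levels, like those of most genes in the loop, are known to change with the time of day.

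Reads on annotated mouse genes numbered 1117891 in replicate 1 and 975696 in replicate 2. The unit of level below is CPM, counts per 1000000 of these reads. A count of 0 allows up to 3 reads, or 2.68 CPM in replicate 1 and 3.07 CPM in replicate 2. Of the marker lists, the 5 fast fibre genes summed to 195998 and 242913 CPM with none at 0. Atp2a1 made up most of this sum, at 151696 and 191442 CPM. Myh4 was also higher in replicate 2, while Actn3, Mylpf and Pvalb were lower there. The 6 slow fibre genes summed to 574 and 4642 CPM, also with none at 0, so the libraries differed in this list by more than in any of the 6 clock genes tested below. The lists of 7 other cell types summed to between 18.4 CPM (macrophage, replicate 2) and 451 CPM (fibroblast, replicate 2). In bulk tissue, fewer cells of a type and less RNA per cell cannot be told apart.

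Tef was the most abundant of the 10 genes in both libraries. It stood at 262 ± 54.9 CPM (SD, n = 2) and held 53.8% of all reads of the 10 genes in replicate 1 and 68.5% in replicate 2. Nr1d1 followed at 50.1 ± 20.2 CPM, Nr1d2 at 46.8 ± 0.91 and Arntl at 35.6 ± 14.1. The ranges of Nr1d1 and of its neighbours Nr1d2 and Arntl overlapped, and Nr1d2 and Arntl lay within each other's counting intervals in replicate 1 but outside them in replicate 2, at 46.1 and 25.6 CPM. Dbp at 12.9 ± 0.79 CPM and Clock at 11.7 ± 4.96 CPM did not differ beyond their spread either. The order below Tef depended on which reads were counted: on annotated models (Known) and models with a new combination of annotated sites (NIC) or an unannotated site (NNC) only, leaving out partial and unspliced ones, Nr1d2 stood at 39.0 CPM, Arntl at 34.3, Nr1d1 at 28.5, Dbp at 11.4 and Clock at 5.18. Per3, Hlf, Per2 and Ciart were each below 3 CPM on average, and their order cannot be read from the 2 to 6 reads they had in all. Each long read was counted once whatever the length of its transcript, so these levels were not divided by length. Whether long transcripts were read less often than short ones was not tested. Divided by annotated length in kilobases as well, Tef was still highest at 64.3 CPM per kb, followed by Nr1d1 at 18.4, Arntl at 12.2, Nr1d2 at 10.03, Dbp at 7.00 and Clock at 1.57. The summed level of the 10 genes was 416 CPM in replicate 1 and 440 CPM in replicate 2.

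**Figure D1:**
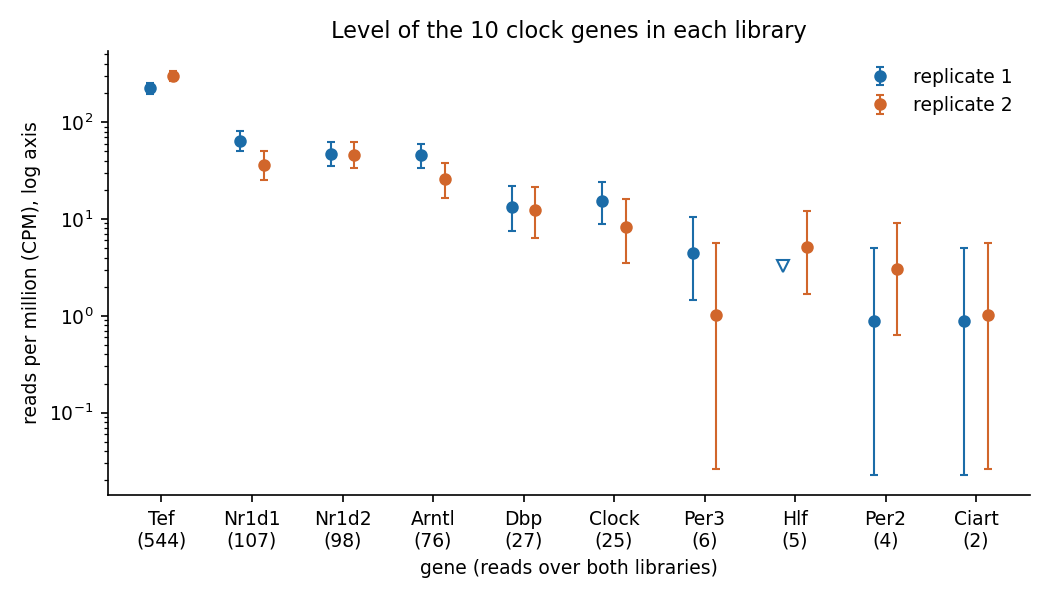
Level of each of the 10 genes in CPM (log axis) in replicate 1 (blue) and replicate 2 (orange), in order of mean level, with exact Poisson 95% intervals as bars; the open triangle is the upper limit for Hlf in replicate 1, which had 0 reads. Tef lies above the 9 other genes in both libraries, and the 4 genes on the right rest on 2 to 6 reads.

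Of the 10 genes, 6 had 10 or more reads in the 2 libraries together and could be compared between them, the activators among these. Arntl, on the plus strand of chromosome 7 (mm10, 113207465 to 113314126), encodes the activator without which the clock stops. It had 51 reads in replicate 1 and 25 in replicate 2, or 45.6 and 25.6 CPM. Its level was 1.64-fold higher in replicate 1 (exact 95% interval 1.00 to 2.77), which did not pass the exact binomial test (p adjusted by Benjamini-Hochberg across 8394 genes, 0.219). Clock, on the minus strand of chromosome 5 (76209868 to 76304792), encodes the DNA-binding partner of ARNTL. It had 17 reads in replicate 1 and 8 in replicate 2, or 15.2 and 8.20 CPM. The fold of 1.71 (0.701 to 4.59) did not pass the test either (adjusted p = 0.547 by the exact binomial test). Both partners had more reads in replicate 1, and neither difference passed. Arntl had more reads than Clock in each library, 51 against 17 and 25 against 8.

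The repressors of Arntl transcription, Nr1d1 and Nr1d2, encode heme-binding receptors with overlapping roles. Nr1d1 (chromosome 11, minus strand, 98767932 to 98775333) had 72 reads in replicate 1 and 35 in replicate 2, or 64.4 and 35.9 CPM. It was 1.66-fold higher in replicate 1 (1.09 to 2.56), with an adjusted p of 0.0991 by the exact binomial test. With library sizes taken as total reads in place of TMM (trimmed mean of M-values) sizes, its adjusted p was 0.0410, which is past the threshold. Total reads also moved the median of all genes by 0.11 on the log2 scale toward replicate 1. Nr1d2 (chromosome 14, minus strand, 18204054 to 18239127) had 53 and 45 reads, or 47.4 and 46.1 CPM. The libraries differed by less than counting error in Nr1d2, at a fold of 0.949 (0.626 to 1.45; adjusted p = 0.981 by the exact binomial test). The direction of this small difference changed with total reads and with 2 of the other settings.

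Per2, Per3 and Ciart, which encode proteins that hold back the ARNTL and CLOCK pair, were near the limit of detection. Per2 (chromosome 1, minus strand, 91415982 to 91459324) had 1 read in replicate 1 and 3 in replicate 2. The reads of Per2 in replicate 2 were 2 of the whole annotated chain of 23 exons and 1 that held only its last 19 exons. Per3 (chromosome 4, minus strand, 151003652 to 151044665) had 5 reads and 1 read. Only 1 of these Per3 reads followed the whole annotated chain of 21 exons. Ciart (chromosome 3, minus strand, 95878503 to 95882251) had 1 read in each library, and neither followed an annotated chain in full. These 3 genes and Hlf were below the filter of 10 reads. With no filter all 10 genes were tested by the exact binomial test and 1 passed, Tef, beside 847 of 14451 genes. Per2, Per3, Ciart and Hlf thus did not pass at this depth. The exact interval of the fold between the libraries spanned 1 in Per2, Per3 and Ciart. In Hlf, with 0 and 5 reads, the fold of replicate 2 over replicate 1 had a lower limit of 1.14, which leaves out 1. That interval is not adjusted for the number of genes and rests on 5 reads, so whether Hlf differed is not decided.

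Among the PAR bZIP genes the levels were far apart. Dbp (chromosome 7, plus strand, 45705088 to 45710203), long known as a strongly rhythmic output of the clock, had 15 reads in replicate 1 and 12 in replicate 2, or 13.4 and 12.3 CPM. Its fold between the libraries was 1.01 (0.440 to 2.36; adjusted p = 1 by the exact binomial test). Hlf (chromosome 11, minus strand, 90336536 to 90390895) had 0 reads in replicate 1 and 5 in replicate 2. Of those 5 reads 2 were unspliced reads inside the gene, and 1 followed the annotated chain Hlf-201. Tef (chromosome 15, plus strand, 81802421 to 81826863) had 250 reads in replicate 1 and 294 in replicate 2, or 224 and 301 CPM.

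Tef was the only 1 of the 6 genes tested that passed the test, and it was higher in replicate 2. Its fold of replicate 2 over replicate 1 was 1.46 (1.23 to 1.73; adjusted p = 0.000286 by the exact binomial test). Over all 8394 genes tested, 11.7% passed in either direction and 7.06% in the direction of Tef, so 1 of 6 is near the background. By the same test 3 of the 6, Tef, Nr1d1 and Arntl, had an unadjusted p under 0.05. It was 0.0147 for Nr1d1 and 0.0491 for Arntl by the exact binomial test. How many of all genes had an unadjusted p under 0.05 was not counted, so nothing is read from these 3. The test holds counting error only: with the scatter between the libraries added as a common dispersion in edgeR's exact test, the adjusted p of Tef was 1, none of the 6 genes passed and 0.286% of all genes did. By that edgeR test none of the 6 had an unadjusted p under 0.05 either. The common dispersion came from these same 2 libraries treated as 1 group, so their differences count as scatter and few genes can pass. A failure in that test therefore does not decide whether Tef differed. With the trend of the ratio on transcript length removed, the log2 difference of Tef fell from -0.55 to -0.31 (replicate 1 over replicate 2; adjusted p = 0.109 by the exact binomial test). The slow fibre list was also higher in replicate 2, and its part in the difference of Tef was not tested.

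**Figure D2:**
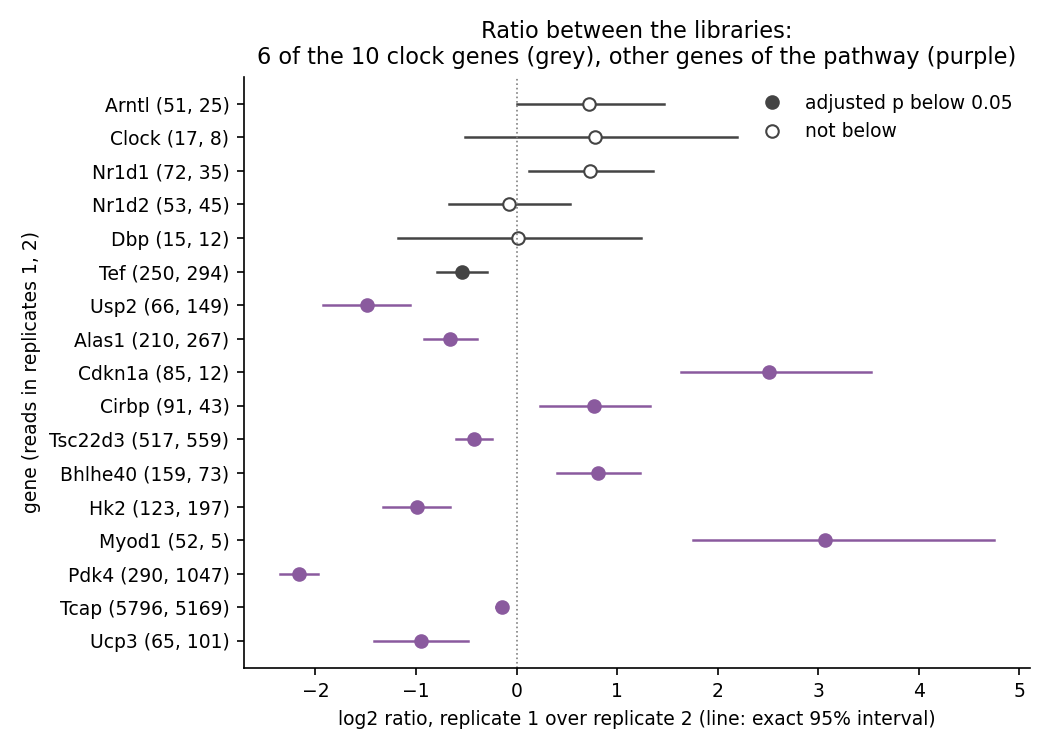
Log2 ratio of replicate 1 over replicate 2 for the 6 clock genes with at least 10 reads (grey) and for the other genes of the pathway that passed the test (purple), with exact 95% intervals as lines and read counts in brackets; filled points passed the exact binomial test. Of the grey points only Tef is filled, at -0.55, while Nr1d2 and Dbp sit close to 0 and the intervals of Clock and Dbp reach far to both sides.

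The members of the PAR bZIP family resemble each other in the part that precedes and enters the DNA-binding region, which matters for telling their reads apart. The 90 coding bases most alike between the genes are shown, each 5′ to 3′ from the GENCODE M21 transcript named and spanning 1 intron on mm10, with bases that are the same in all 3 genes in capitals.
Dbp (Dbp-201, chr7:45708397-45709679, plus strand): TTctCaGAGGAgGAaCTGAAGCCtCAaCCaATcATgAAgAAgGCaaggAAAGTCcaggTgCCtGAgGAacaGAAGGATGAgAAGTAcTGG
Tef (Tef-201, chr15:81821345-81823480, plus strand): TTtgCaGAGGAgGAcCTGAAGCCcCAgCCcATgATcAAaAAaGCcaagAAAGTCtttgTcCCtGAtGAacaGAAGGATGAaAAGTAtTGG
Hlf (Hlf-201, chr11:90340960-90345832, minus strand): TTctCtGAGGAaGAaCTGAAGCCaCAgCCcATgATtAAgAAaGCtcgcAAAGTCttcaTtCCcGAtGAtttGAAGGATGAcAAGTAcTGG
In this window 62 of 90 bases (68.9%) were the same in all 3 genes, 71 (78.9%) in Dbp and Tef, 69 (76.7%) in Tef and Hlf and 68 (75.6%) in Dbp and Hlf. The genes thus differ even where they are most alike, and a long read carries far more than this window.

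Tef is transcribed from alternative first exons, and the libraries differed in how often the upstream one was seen joined directly to the second exon. The first coding exons encode different beginnings of the protein. Both coding stretches are shown 5′ to 3′ on the plus strand from GENCODE M21, from the start codon, in capitals, to the end of the exon.
Tef-202, upstream (chr15:81802784-81802886): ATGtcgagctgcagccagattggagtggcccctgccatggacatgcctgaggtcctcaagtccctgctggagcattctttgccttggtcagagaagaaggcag
Tef-201, downstream (chr15:81811570-81811720): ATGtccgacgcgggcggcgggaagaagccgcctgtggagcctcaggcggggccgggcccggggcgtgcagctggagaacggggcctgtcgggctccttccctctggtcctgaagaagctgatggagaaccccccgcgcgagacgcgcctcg
The upstream exon gives 103 coding bases and the downstream exon 151, and both join the same second exon. Of the reads that joined either exon directly to the second one, 3 of 185 in replicate 1 used the upstream exon, or 1.62% (Wilson 95% interval 0.553 to 4.66). In replicate 2 they were 25 of 211, or 11.8% (8.16 to 16.9). Reads that joined the downstream exon to the second numbered 182 and 186, before any scaling for library size. These shares leave out reads that began in the upstream exon and were spliced otherwise. In replicates 1 and 2 they were 3 and 1 of Tef-204, 0 and 2 of Tef-208 and 0 and 1 of Tef-209. Chains with an unannotated site (NNC) added 2 and 1 reads and 1 and 0 reads. The downstream exon had 0 and 1 such reads, on an NNC chain. This pair of exons was singled out after the reads were seen, so the difference carries no test of its own.

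The test across genes was made on the share of the leading whole intron chain, which for Tef was the 4-exon chain of Tef-201 in both libraries. It held 180 of 200 complete reads (90.0%) in replicate 1 and 183 of 235 (77.9%) in replicate 2, where complete means any class other than an incomplete match or an unspliced read. Fisher's exact test, adjusted over 3521 genes, gave p = 0.101, which did not pass. For the first splice donor alone, an alternative added after the data were seen, the shares were 90.5% and 78.7% (Fisher's exact test adjusted over 3398 genes, p = 0.182; 0.294% of those genes passed). None of the 3 genes with enough reads (Tef, Arntl and Nr1d2) passed for the leading chain, against 0.426% of all genes tested. Of these, 2, Tef and Nr1d2, had an unadjusted p under 0.05 by Fisher's exact test. The share of all genes under that unadjusted threshold was not taken, so nothing is read from this count. The leading annotated chain of Nr1d2 held 31 of 46 and 32 of 36 complete reads of Nr1d2 (adjusted p = 0.926 by Fisher's exact test). Arntl-201 held 21 of 48 and 15 of 25 complete reads of Arntl (adjusted p = 1 by Fisher's exact test).

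**Figure D3:**
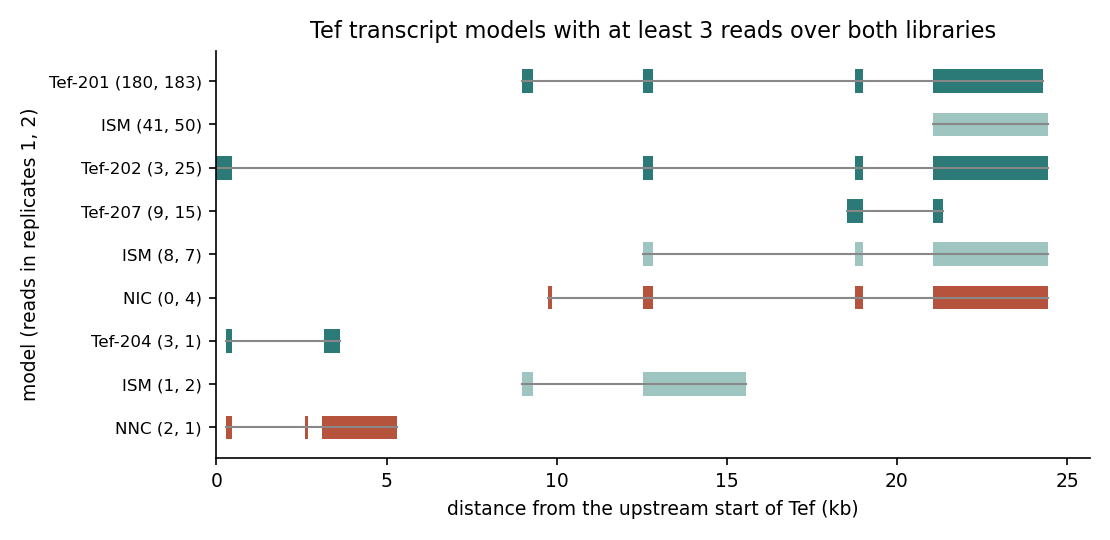
Tef transcript models with 3 or more reads in all, with exons as boxes against the distance from the upstream start in kilobases and the reads of replicates 1 and 2 in brackets; dark green models are annotated, light green ones match an annotated chain in part (ISM) and red ones hold an unannotated chain (NIC or NNC). The downstream start of Tef-201 carries 180 and 183 reads, and the upstream start of Tef-202 carries 3 and 25.

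Several other Tef models were seen in both libraries. A model that held only the last exon had 41 reads in replicate 1 and 50 in replicate 2. Tef-207, a short annotated model of 2 exons, had 9 and 15 reads. The last 3 exons without a first exon were seen in 8 and 7 reads. A chain from an unannotated combination of sites (NIC) with its first exon just downstream of that of Tef-201 had 4 reads, all in replicate 2.

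Reads of Arntl showed short splice choices inside the coding part. At exon 13 of the 20 exons of Arntl-201 the splice acceptor lies beside a second AG, so that a CAG can be kept or dropped, which adds or removes 1 codon without shifting the frame. The same kind of choice is found at exon 21 of the 23 exons of Clock-205. Both junctions are shown 5′ to 3′ from GENCODE M21, with the 30 coding bases on either side in lower case and the optional bases in capitals.
Arntl, exon 13 (chr7:113295564-113299219, plus strand): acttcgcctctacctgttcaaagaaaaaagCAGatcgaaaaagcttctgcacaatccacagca
Clock, exon 21 (chr5:76229531-76230194, minus strand): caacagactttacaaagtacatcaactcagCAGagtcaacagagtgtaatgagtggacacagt
In Arntl the CAG was dropped in 17 of 49 reads that crossed the junction in replicate 1, or 34.7% (Wilson 95% interval 22.9 to 48.7). In replicate 2 it was dropped in 5 of 24, or 20.8% (9.24 to 40.5). The intervals overlapped, and over both libraries the short form made up 30.1% of 73 reads (20.8 to 41.4). GENCODE M21 has no Arntl transcript with the short form, so most of its reads were named as holding an unannotated splice site (NNC) and the others as NIC or as an incomplete match. The chain that differs from Arntl-201 only there was the next most frequent Arntl chain, with 13 reads in replicate 1 and 5 in replicate 2. In Clock the CAG was dropped in 3 of 7 and 2 of 5 reads, and there each site is annotated in some transcript. Acceptors 3 bases apart, each with 3 or more reads in all, were found in 508 of 5774 genes with at least 20 complete reads (8.8%), and in 1 of the 5 clock genes in that base.

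A small exon of Arntl was also held by some reads only. The exon has 21 bases and is exon 5 of the 20 exons of Arntl-206, shown in capitals between the 30 coding bases on either side, 5′ to 3′ on the plus strand from GENCODE M21.
Arntl-206, exon 5 (chr7:113280773-113283286): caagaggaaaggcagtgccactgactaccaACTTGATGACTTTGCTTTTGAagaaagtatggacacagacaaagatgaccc
It was held by 8 of 47 reads in replicate 1, or 17.0% (8.89 to 30.1), and by 1 of 25 in replicate 2, or 4.00% (0.71 to 19.5). The intervals overlapped. A 15-base extension of another Arntl exon was held by 3 of 49 and 3 of 25 reads. The chain with this extension was named NIC in replicate 1 and NNC in replicate 2, so the class of a chain was not assigned alike in both tables. Arntl thus had no choice among these 3 whose intervals were apart between the libraries. In Clock, an exon of 90 bases was skipped in 2 of 7 reads in replicate 1 and in 0 of 4 in replicate 2. In Nr1d2, an exon of 80 bases upstream was held by 2 of 42 and 1 of 36 reads, and an unannotated exon in the last intron by 3 of 42 reads in replicate 1 and 0 of 38 in replicate 2, which allows up to 9.18% by the Wilson interval. In Per3, an acceptor 3 bases upstream of the annotated one was used by 1 of the 3 reads that crossed the junction.

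**Figure D4:**
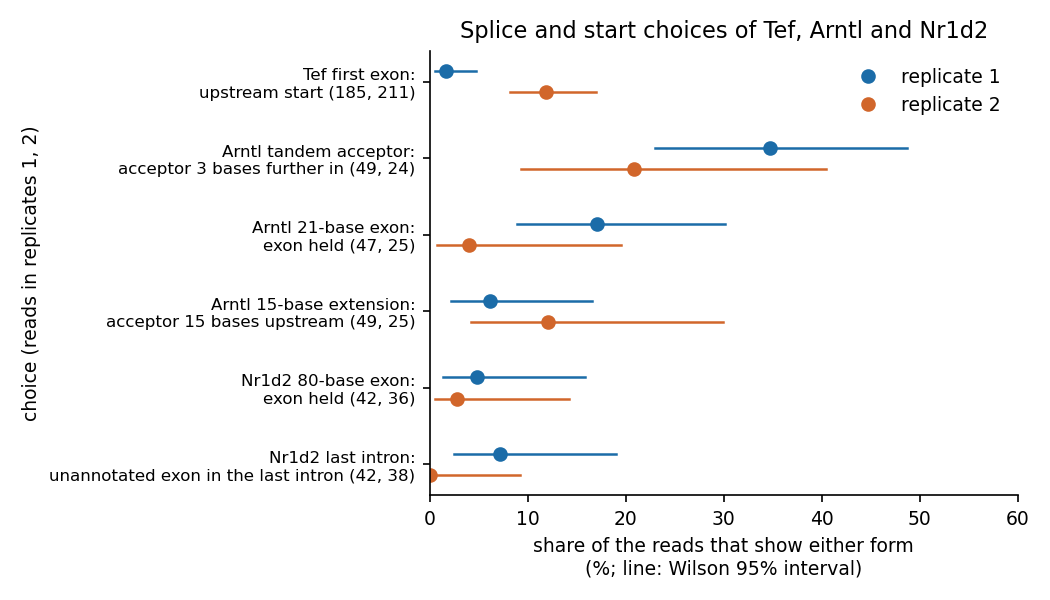
Share of reads with the form named, among the reads that show either form, for the choices of Tef, Arntl and Nr1d2 with 20 or more such reads in both libraries, in replicate 1 (blue) and replicate 2 (orange), with Wilson 95% intervals as lines. The intervals of the libraries are apart for the upstream start of Tef joined directly to its second exon, at 1.62% and 11.8%. They overlap for the other 5 choices.

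The reads of the 10 genes fell on 95 distinct chains, with the unspliced models of a gene and class pooled as 1, of which 25 were seen in both libraries, 39 only in replicate 1 and 31 only in replicate 2. Of the 95 chains, 57 rested on 1 read, while the 25 shared chains held 412 of 465 reads in replicate 1 and 391 of 429 in replicate 2. Tef shared 8 of 17 chains, which held 247 of its 250 reads and 284 of its 294. Clock shared 1 of 14, and that one was the pooled group of unspliced reads inside the gene, with 3 reads and 1 read. How many chains were shared over all annotated genes was not counted, so these counts are not read as particular to the clock genes. Annotated chains (Known) took 66.0% of the reads of the 10 genes in replicate 1 (Wilson 95% interval 61.6 to 70.2) and 71.8% in replicate 2 (67.4 to 75.8), beside 63.6% and 59.3% over all annotated genes. Incomplete matches (ISM), which follow part of an annotated chain, took 19.8% and 19.6%, beside 11.3% and 11.0%. Chains with an unannotated site (NNC) took 7.10% and 3.73%, beside 17.9% and 21.5%. Most reads of the 10 genes are reads of Tef, so these shares describe mainly Tef, and they carry no test.

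The mix of classes varied from gene to gene. Dbp was read mostly as annotated chains, with 13 of 15 and 10 of 12 reads, led by Dbp-201 with 9 and 7. Nr1d1 split into the annotated chain of 8 exons with 38 of 72 and 17 of 35 reads, and a model holding only its last 4 exons, with 21 and 11. Arntl was read almost whole, with 2 of 51 and 0 of 25 reads on incomplete matches. Clock, whose annotated transcripts are the longest of the 10 genes, had 1 of 17 and 2 of 8 reads on annotated chains and 6 reads in replicate 1 on its last exon alone. Nr1d2 had 6 of 53 and 5 of 45 reads on unspliced models inside the gene. Tef had 50 of 250 and 59 of 294 reads on incomplete matches, most of them the last exon alone.

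**Figure D5:**
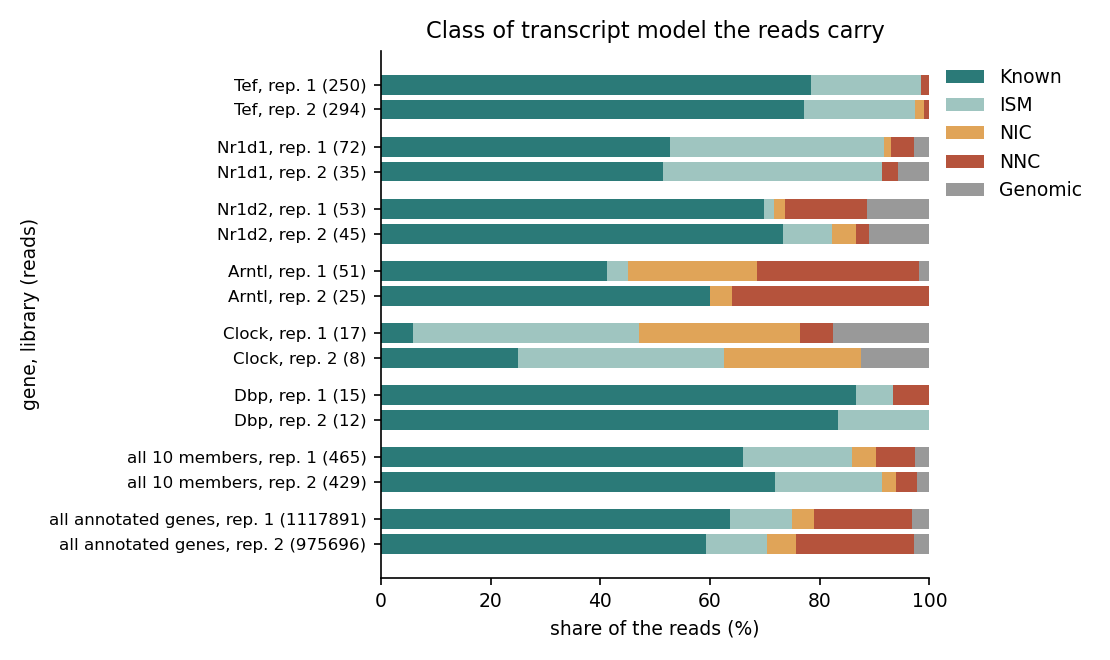
Share of reads on each class of transcript model in replicates 1 and 2 for the 6 clock genes with at least 10 reads, for all 10 clock genes together and for all annotated genes, with the number of reads in brackets. Tef and Dbp are mostly Known, Nr1d1 has a similar share of ISM reads in both libraries (38.9% and 40.0%), and NIC and NNC reads are most frequent in Arntl and Clock.

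A whole annotated coding part, from start codon to last codon with every coding junction, was held by 63.7% of the reads of the 10 genes in replicate 1 (Wilson 95% interval 59.2 to 67.9) and 67.1% in replicate 2 (62.6 to 71.4). The shares over all coding genes were 67.6% and 63.5%. Tef held it in 183 of 250 and 208 of 294 reads. Arntl held it in 29 of 51 and 16 of 25, and the reads that dropped the CAG do not count there because no annotated coding part lacks it. Clock held it in 4 of 17 and 3 of 8. Deposited models begin and end at annotated ends where they can, so these shares say which junctions were read and not where each molecule ended.

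Other transcription overlaps some of these genes. The end of Thra, the thyroid hormone receptor alpha gene, overlaps Nr1d1 by 1075 bases on the opposite strand and had 24 and 18 reads. Sphk2, a sphingosine kinase gene, overlaps Dbp by 737 bases on the opposite strand, with 21 and 22 reads. Camta1, a transcription activator gene, spans all of Per3 on the same strand, with 109 and 79 reads. Thra, Sphk2 and Camta1 did not pass the test (adjusted p = 0.996, 0.751 and 0.804 by the exact binomial test). The sources used here do not say how the counting used strand. Spliced reads carry their strand in their splice sites, while unspliced reads in the shared ends are uncertain. The remaining overlapping genes had 6 reads or fewer over both libraries: C920021L13Rik opposite Ciart had 2 and 4, Ube2n-ps1 within Clock 1 and 3, Gm45355 opposite Arntl 0 and 2, and Gm43658 within Clock and Gm17597 opposite Tef 0 in both. Loci added in the tables opposite the 10 genes numbered 7 in replicate 1, with 8 reads, and 11 in replicate 2, with 17 reads, and lay opposite Arntl, Clock, Nr1d2, Per3 and Hlf.

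The windows around the start sites were searched for the letters the clock factors are known to bind. RefSeq windows on GRCm38.p6, the same assembly as mm10, from 250 bases before to 50 after a start, were found for 9 of the 10 genes, 13 windows in all. The E-box CACGTG, read on both strands, was in 3 of the 13 windows and in 7.15% of 32851 windows of all genes. Both RefSeq windows of Tef held it, 127 bases before the upstream RefSeq start and 138 before the downstream one. The GENCODE model Tef-202 begins further upstream, at 81802421, so that the first of these matches lies inside its first exon. The matches are shown 5′ to 3′ on the plus strand with the E-box in capitals.
Tef, upstream RefSeq window (chr15:81802534-81802563): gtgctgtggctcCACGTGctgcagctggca
Tef, downstream RefSeq window (chr15:81811264-81811293): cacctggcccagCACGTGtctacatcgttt
The third window was that of Ciart, with 3 matches. CACGTT on either strand was in the window of Nr1d1 and in 4.68% of all windows. The D-boxes TTATGTAA and TTACGTAA were searched together and were in 1.06% of all windows, and the window of Per3 held 2 matches of TTATGTAA. The ROR element TAGGTCA was in a window of Arntl, 30 bases after the start, and in 2.61% of all windows. None of these matches overlapped another, and a match is a description of the sequence and not a bound site.

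Other genes of the pathway were taken from 4 lists of 51 genes, of which 41 had enough reads to be tested. Of these, 11 passed the exact binomial test, 4 higher in replicate 1 and 7 in replicate 2, beside 4.61% and 7.06% of all genes tested in these directions. The median log2 ratio of the 41 genes was -0.05 and that of all genes tested -0.003. The lists were chosen with earlier results of these data known, and a gene with many reads passes more easily, so nothing particular to the lists is read from these counts. With edgeR's exact test and the common dispersion, 1 of the 41 genes passed, Pdk4 (adjusted p = 0.0301).

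Of the other genes of the feedback loop, 7 of 11 were tested and 1 passed, higher in replicate 1. Bhlhe40, which encodes a repressor that competes for E-boxes and was the most abundant of the list by mean level, had 159 and 73 reads and was 1.76-fold higher (1.32 to 2.35; adjusted p = 0.00101 by the exact binomial test). Rorb had 0 reads in both libraries. The median log2 ratio of the 7 genes was -0.05, with 3 of the ratios positive and 4 negative.

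Of the modifiers of clock proteins, 18 of 22 were tested and 1 passed. Usp2, which encodes a deubiquitinase and was the most abundant of the list by mean level, had 66 and 149 reads and was 2.80-fold higher in replicate 2 (2.08 to 3.80; adjusted p = 2.59e-11 by the exact binomial test). Fbxl21 had 0 reads in both. The median log2 ratio was 0.07.

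Of the outputs known from several tissues, 9 of 11 were tested and 4 passed. Tsc22d3, a glucocorticoid-induced gene and the most abundant of the list, had 517 and 559 reads and was 1.34-fold higher in replicate 2 (1.19 to 1.51). Alas1, the first enzyme of heme synthesis, had 210 and 267 reads and was 1.58-fold higher in replicate 2 (1.31 to 1.90). Cirbp, which encodes a cold-inducible RNA-binding protein, had 91 and 43 reads and was 1.71-fold higher in replicate 1 (1.17 to 2.51), with an adjusted p of 0.0372 by the exact binomial test. Cirbp did not pass with no filter on low counts (0.0637), with Known, NIC and NNC models only (0.132), with Known models only (0.144) or with the length trend removed (0.250), and over all alternatives its adjusted p ran from 0.00902 with total reads to 1 with edgeR's exact test. Cdkn1a, a cell cycle inhibitor, had 85 and 12 reads, also higher in replicate 1. Lonrf3 had 0 reads in both. The directions were mixed, with a median log2 ratio of -0.04.

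Of the muscle genes that depend on the clock, all 7 were tested and 5 passed. Myod1, the myogenic factor that ARNTL and CLOCK are known to drive, had 52 and 5 reads and was 8.38-fold higher in replicate 1 (3.37 to 26.9; adjusted p = 1.99e-07 by the exact binomial test and 0.0521 by edgeR's exact test). The 3 satellite cell markers summed to 52.8 and 34.8 CPM, nearly all of it Cdh15 at 51.9 and 33.8 CPM, with Pax7 at 0 in both libraries. Their part in the difference of Myod1 was not tested. Hk2, the hexokinase of muscle, had 123 and 197 reads and was 1.99-fold higher in replicate 2 (1.58 to 2.51). The log2 ratio of Hk2 (replicate 1 over replicate 2) was -0.99, and it was -1.73 on Known, NIC and NNC models only and -1.87 on Known models only. Ucp3, a mitochondrial carrier, had 65 and 101 reads and was 1.93-fold higher in replicate 2 (1.40 to 2.68). Tcap, a cap protein of titin and the most abundant of the list, had 5796 and 5169 reads and was 1.11-fold higher in replicate 2 (1.07 to 1.15) but did not pass with total reads as library sizes (adjusted p = 0.567 by the exact binomial test). Pdk4, a brake on glucose use, had 290 and 1047 reads. Myod1 went the other way from these 4, and the median log2 ratio of the 7 genes was -0.16. Slow fibre genes summed to 574 and 4642 CPM, and the part of this gap in the differences of these muscle genes was not tested.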

How the data were processed

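Long-read RNA-seq of 2 libraries of 1 group was deposited as raw counts of reads per transcript model, 1 table per library, and as annotations of the models. Per the file headers the authors used mm10 and GENCODE M21, and the classes and names of added models are those that TALON writes. The sources used here name no aligner, filter or version. Model lengths in bases and exon numbers are the other deposited columns, and a deposited count is a whole number of reads, not normalized.

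The members and the gene lists were chosen with earlier results of these data known. The text names all 10 members, the genes that overlap them, and, from the 4 lists, the genes that passed and the most and least abundant; 1 gene of the lists is not reported here and is left out of their counts. Counts of all models of an annotated gene were summed. Reads on spike-in RNA (30211 and 7609) were left out, and so were reads on added loci. CPM was taken over reads of annotated mouse genes. Genes with 10 or more reads in all were compared by a 2-sided exact binomial test of the replicate 1 count against its share of TMM effective sizes (edgeR 4.0.16, R 4.3.3; factors 1.04 and 0.961), adjusted by Benjamini-Hochberg (8394 genes, threshold 0.05). This compares 2 libraries, and intervals (exact, Poisson or Wilson, 95%) cover counting error only. Alternatives were size factors of DESeq2 1.42.0, total reads, no filter, edgeR's exact test with the common dispersion of 0.0622, model classes, a lowess trend on length, and added loci joined to genes. The common dispersion was estimated from the 2 libraries as 1 group. With 1 library on each side a quasi-likelihood fit cannot be had.

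Models of the libraries were matched by position, strand and introns. Leading chain shares used genes with at least 20 Known, NIC and NNC reads in each library and Fisher's exact test. Coding parts came from annotated coding transcripts with a complete start and end. Sequences came from GENCODE M21 transcripts and RefSeq windows (GRCm38.p6), read with Python 3.11.15, scipy 1.17.1 and pandas 2.3.3. Protein sequences were not used here. The tests of counts and of shares were tested on simulated data.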

Additional observations from a re-analysis of the deposited data

Results flagged for a closer look

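A signal appeared in data that the comparisons do not use: a locus added in the tables on the strand opposite Arntl held 5 reads in replicate 2, above the 3 reads that a count of 0 allows. It is a single exon on chromosome 7 (mm10, minus strand, 113218437 to 113221172) inside the span of Arntl. With no splice site in it, the strand of these reads is uncertain. A locus that shares its lower coordinate, which is its end on the strand given, held 1 read in replicate 1. Arntl itself had 25 reads in replicate 2, and the other added loci opposite the 10 genes held between 1 and 3 reads each.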

How the results depend on the processing

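Of the 47 values that alternatives gave for the log2 ratios of the 6 tested members, 40 kept their direction and their side of the threshold. The settings with edgeR's exact test and with no filter use the main ratios, so direction could not change there. No added locus lay on the strand of a member, so joining these loci changed only the library sizes for the members. The ratio of Nr1d2 (main -0.08) was 0.040 with total reads, 0.053 with Known, NIC and NNC models only and 0.21 with the length trend removed, and that of Dbp (main 0.01) was -0.13 with the length trend removed. The number of members that passed was 1 and became 2 with total reads (Tef and Nr1d1) and 0 with edgeR's exact test and with the length trend removed. The pathway lists had 11 genes that passed, 1 with edgeR's exact test and 10 with the length trend removed. The counts over all 8394 genes tested moved as well. They were 980 in the main test, 1038 with total reads, 24 with edgeR's exact test and 723 with the length trend removed. The summed member level of 428 CPM was 409 CPM over all reads of the table and 333 CPM on Known, NIC and NNC models only, and 416 to 440 CPM leaving out each replicate in turn. The share of member reads with a whole coding part was 65.4% and 57.3% where only the longest coding part counted. The pooled share of Known, NIC and NNC reads of the members did not move with classes harmonised over the libraries. Pooling hides a chain named NIC in 1 library and NNC in the other, and the separate NIC and NNC shares were not harmonised. For the leading chain, 0 members passed under any of its alternatives. Leaving out a replicate ends the comparison of the libraries, so it was applied to levels only. No paired analysis was possible because the series holds 1 group. Depth limits all of this: 4 of the 10 members were below the filter of 10 reads.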
